A study of Mus musculus with 5 samples.

Results

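The extraembryonic endoderm genes examined here are 10 genes taken by name from 55147 gene symbols, with no filter on their expression. They are the transcription factors *Gata4*, *Gata6*, *Sox7*, *Sox17* and *Foxa2*, the endocytic genes *Cubn*, *Lrp2*, *Amn* and *Dab2*, and the growth factor receptor gene *Pdgfra*. Their RNA was measured in E14Tg2a cells, a feeder-independent mouse embryonic stem (ES) cell line. The comparison was of 3 samples of the parent line (WT) with 2 samples of C3G null cells (C3G KO), and it asked how expression differs when C3G is disrupted. C3G is a guanine nucleotide exchange factor encoded by *Rapgef1*. The C3G KO cells carried a knocked-in puromycin cassette in place of the second to the fourth exon, and came from single drug-resistant colonies of the parent line. The labels do not say which clone each C3G KO sample came from. All cells were grown on gelatin in medium with serum and LIF and received no treatment, and the WT samples carried no vector. The study calls the samples independent, but nothing says that those of a group were separate cultures, so the p-values measure the spread between these samples, which may be technical.

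Primitive endoderm is the cell layer that separates from the pluripotent epiblast in the blastocyst. GATA6 acts first in this lineage, followed by SOX17, GATA4 and SOX7, and PDGFRA marks the cells at their surface. The layer gives rise to parietal endoderm and to visceral endoderm, an absorptive epithelium that feeds the early embryo. Uptake there runs through cubilin (*Cubn*), a very large receptor without a membrane anchor, which amnionless (*Amn*) carries to the cell surface. Megalin (*Lrp2*), a large transmembrane receptor, takes up ligands together with cubilin, and the adaptor DAB2 links megalin to clathrin. ES cells in serum are mostly epiblast-like, and a small share of cells in such cultures can take on primitive endoderm expression.

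The values are TPM, read numbers set against transcript length and the library's total, so that levels can be compared between genes. TPM do not hold the depth, so counting intervals are not given. Values of single samples are listed in the order WT 1, 2 and 3 and C3G KO 1 and 2. Small non-coding RNAs held 62.9%, 63.5% and 67.2% of the TPM in the WT samples against 77.8% and 69.6% in the C3G KO samples, and as deposited most other genes had lower TPM in the C3G KO samples. Values are therefore given as deposited and as scaled TPM, divided by the median of ratios of each sample. Scaling moved the median log2 difference of all genes tested from -0.55 to 0.0052. Tests were made with limma on log2(scaled TPM + 1), a scale that understates the change of low genes, with Benjamini-Hochberg adjustment and a threshold of 0.05. A gene was tested if it had at least 1 TPM in at least 2 samples. *Rapgef1* (chr2:29619720-29740978 of GRCm38) had 11.56, 10.31 and 9.64 TPM in the WT samples against 3.92 and 5.55 TPM in the C3G KO samples. It was lower in C3G KO cells by limma, with a log2 difference of -0.41 after scaling (adjusted p = 0.00444) and -1.02 as deposited (adjusted p = 0.000305). With a correction for length and GC content it was -0.11 and did not pass (adjusted p = 0.254). This sum covers all its transcripts and is not restricted to the replaced exons.

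*Cubn* rose in C3G KO cells, by 4.39-fold after scaling and 2.78-fold as deposited, while *Lrp2*, the gene of its partner receptor, was at 0.707 and 0.447 times its WT level on these scales. After scaling, *Gata6*, *Sox17*, *Amn*, *Dab2* and *Pdgfra* had between 2.03 and 3.81 times their WT mean, and *Gata4*, *Sox7* and *Foxa2* between 1.03 and 1.32 times. Only *Cubn*, *Lrp2* and *Dab2* passed the filter of 1 TPM, and the other 7 were below it. Of these 3, *Cubn* and *Dab2* were higher and *Lrp2* was lower in C3G KO cells. Among all 12518 genes tested, 14.1% were higher and 16.6% lower. As deposited, *Cubn* was higher and *Lrp2* lower, where 1.45% of all genes were higher and 56.8% lower. With the length and GC correction *Cubn* and *Dab2* were higher and *Lrp2* did not pass, where 16.9% were higher and 14.2% lower. A filter of 0.1 TPM, added after the values were seen, let all 10 genes be tested among 21625 genes, and every one of the 10 lay above 0.1 TPM in every sample. With it *Cubn*, *Pdgfra*, *Dab2*, *Amn*, *Sox17* and *Gata6* were higher, *Lrp2* was lower, and *Gata4*, *Sox7* and *Foxa2* did not pass. That is 6 of 10 higher, where 8.65% of all genes were higher and 10.8% lower. As deposited, *Cubn*, *Pdgfra* and *Amn* were higher with this filter, *Lrp2* was lower and 6 genes did not pass, beside 1.07% higher and 33.9% lower overall. The length and GC correction made 7 higher, *Gata4* among them, and *Lrp2* did not pass, beside 10.6% higher and 10.1% lower. Below, adjusted p-values are from limma with the filter of 1 TPM for *Cubn*, *Lrp2* and *Dab2* and with the filter of 0.1 TPM for the other 7. In these bulk samples, more cells of an endoderm type and more RNA per cell cannot be told apart.

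**Figure D1:**
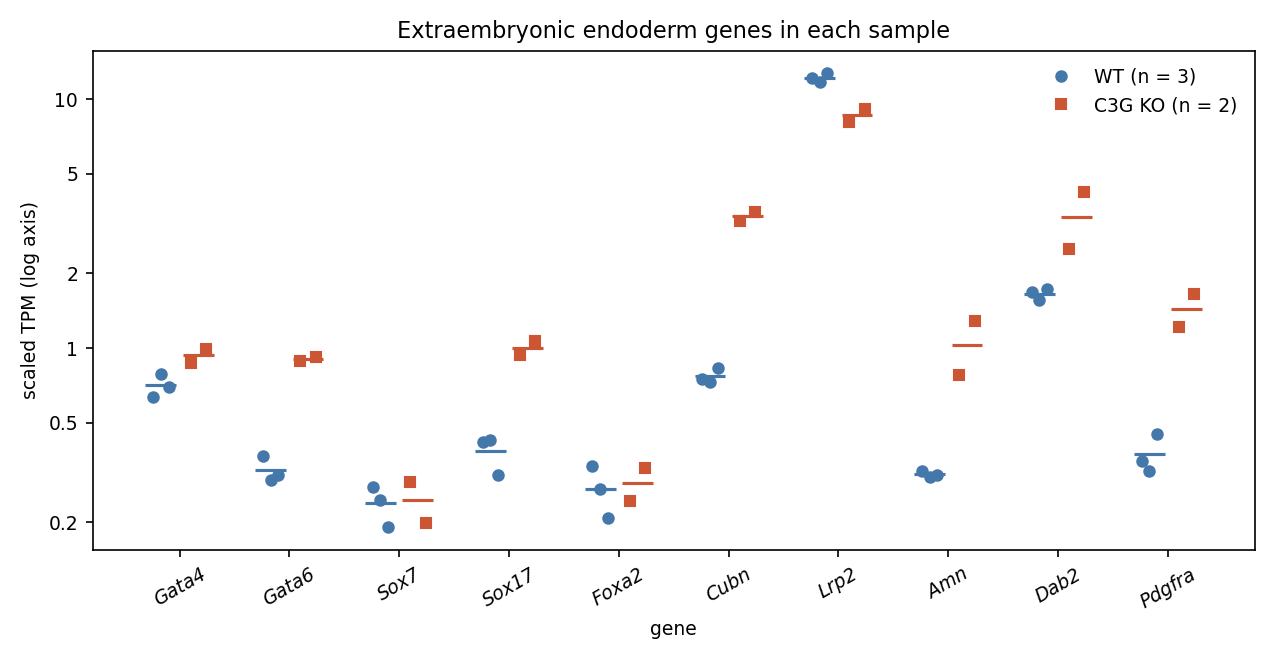
Scaled TPM of the 10 genes in each of the 5 samples on a log axis, with WT and C3G KO samples as separate points and a bar at each group's mean. For 7 genes both C3G KO samples lie above all WT samples, for *Lrp2* both lie below, and for *Sox7* and *Foxa2* the groups overlap.

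After scaling, both C3G KO samples lay above all WT samples for 7 of the 10 genes and below them for 1, and the groups overlapped for 2. Among all genes past the filter of 0.1 TPM, 23.5% lay above and 27.1% below in this way. As deposited, 5 genes lay above, 2 below and 3 overlapped, where 2.32% of all genes lay above and 65.1% below. The scaled TPM of all 10 genes summed to 17.24, 16.67 and 17.71 in the WT samples against 19.06 and 23.29 in the C3G KO samples, with *Lrp2* as the largest part of each WT sum. As deposited the sums were 23.02, 20.34 and 19.55 TPM in the WT samples against 11.79 and 21.1 TPM in the C3G KO samples, and the groups overlapped. Left without *Lrp2*, the gene that was lower, the other 9 summed to 5.139, 4.935 and 5.037 scaled TPM in WT. Their sums were 10.96 and 14.18 in C3G KO cells, and those as deposited overlapped. *Lrp2* was left out because it was lower, so this gap follows in part from the choice. *Cubn* and *Dab2* held 3.382 and 3.361 of the C3G KO mean of 12.57.

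The order of levels in WT cells was led by *Lrp2*, whose mean of 14.82 TPM lay above that of 85.0% of the 21950 protein-coding genes. *Dab2* and *Cubn* followed with means of 2.017 and 0.9367 TPM. The means of the other 7 genes were between 0.2933 TPM for *Sox7* and 0.86 TPM for *Gata4*, above those of 41.5% to 49.5% of protein-coding genes. *Cubn* and *Gata4* did not differ beyond their spread in WT, with 0.89 to 1.0 TPM and 0.77 to 0.96 TPM. The ranges of *Amn*, *Gata6*, *Sox17*, *Pdgfra* and *Foxa2* also overlapped in WT. In C3G KO cells *Cubn* and *Dab2* stood side by side, with means of 2.6 and 2.685 TPM.

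*Cubn* (ENSMUSG00000026726, chr2:13276338-13491813, minus strand) encodes cubilin. It had 1.0, 0.89 and 0.92 TPM in the WT samples against 2.0 and 3.20 TPM in the C3G KO samples. The lowest C3G KO sample was above the highest WT sample, as deposited and after scaling. In scaled TPM the means were 0.7707 ± 0.0552 (SD, n = 3) and 3.382 ± 0.212 (SD, n = 2). The log2 difference was 1.31 (SE 0.0755, adjusted p = 0.000291 from limma), and 0.87 as deposited (adjusted p = 4.35e-05). It reached 1 TPM in both C3G KO samples and in WT 1 alone, so it passed the filter of 1 TPM through the group in which it was higher. With the filter of 0.1 TPM, which every sample reached, it was also higher (adjusted p = 0.000626). Almost all of it was the full-length transcript *Cubn-201* of 11262 bases, which held 96.8% of the gene's TPM in WT and 96.0% in C3G KO cells. A non-coding gene on the opposite strand, Gm13270, had at most 0.17 TPM in any sample. Whether the counting used strand is not stated, so reads in the overlap cannot be assigned.

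*Lrp2* (ENSMUSG00000027070, chr2:69424340-69586065, minus strand) encodes megalin. It had 16.16, 14.32 and 13.99 TPM in the WT samples against 5.01 and 8.25 TPM in the C3G KO samples, so that every C3G KO sample was below every WT sample. After scaling the gap was narrower, from a WT mean of 12.17 ± 0.470 (SD, n = 3) to a C3G KO mean of 8.602 ± 0.713 (SD, n = 2). The log2 difference was -0.46 (SE 0.0741, adjusted p = 0.00686 from limma) after scaling and -1.08 (adjusted p = 0.00017) as deposited. Its main transcript *Lrp2-201* is 15460 bases long. Across all genes tested the log2 difference went down with length, with a Spearman correlation of -0.314 over 12514 genes that is given as a description. With the length and GC correction the log2 difference of *Lrp2* was -0.16 (adjusted p = 0.191 from limma) and did not pass, and that of *Cubn*, whose transcript is also long, was 1.53 (adjusted p = 0.000252).

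The ratio of megalin to cubilin transcripts within a sample does not depend on the scaling. It was 16.16, 16.09 and 15.21 in the WT samples against 2.505 and 2.578 in the C3G KO samples. The means were 15.82 ± 0.531 (SD, n = 3) and 2.542 ± 0.0517 (SD, n = 2), and the groups were far apart relative to their spread. With 3 samples against 2, a two-sided exact permutation test cannot go below p = 0.2, which is the value this ratio and the other ratios below gave. The ratio of *Dab2* to *Lrp2* was between 0.1327 and 0.1386 in WT and was 0.3094 and 0.463 in C3G KO cells.

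**Figure D2:**
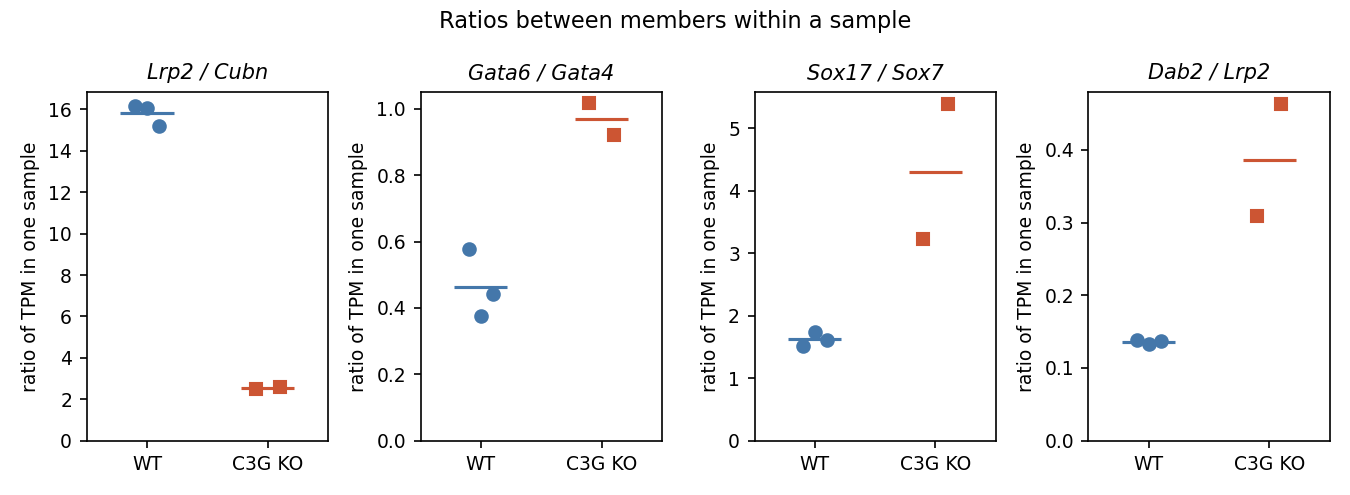
Ratios of TPM between pairs of genes within each sample on a linear axis, with WT and C3G KO samples as separate points. *Lrp2*/*Cubn* is between 15.21 and 16.16 in WT and is 2.505 and 2.578 in C3G KO cells.

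The promoters of the receptor pair are shown because these genes lie on one chromosome, are used together and moved apart. Each is 300 bases of GRCm38.p6 from RefSeq, read 5′ to 3′ on the gene's strand, with 250 bases before the annotated start and 50 after it. Motifs were searched on both strands. The motif of GATA factors was spelled AGATAA or AGATAG, or either with T in place of the opening A, that of SOX factors ACAAT, and that of forkhead (FOX) factors TGTTTAC or TATTTAC. The pair holds none of them, so no letters are in capitals. Among 32851 such promoters of all genes, 29.8% hold a GATA, 31% a SOX and 6.54% a FOX match. The *Cubn* window has 44.3% G and C and 5 CpG, and the *Lrp2* window has 65.0% and 20 CpG, where the medians of all promoters are 52.7% and 7.0. Both are on the minus strand, at chr2:13491827-13492126 and chr2:69585980-69586279.
Cubn: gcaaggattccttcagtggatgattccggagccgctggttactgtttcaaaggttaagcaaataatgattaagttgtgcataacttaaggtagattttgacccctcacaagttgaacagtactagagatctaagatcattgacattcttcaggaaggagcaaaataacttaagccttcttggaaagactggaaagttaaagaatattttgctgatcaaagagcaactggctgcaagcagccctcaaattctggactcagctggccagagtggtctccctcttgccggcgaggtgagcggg
Lrp2: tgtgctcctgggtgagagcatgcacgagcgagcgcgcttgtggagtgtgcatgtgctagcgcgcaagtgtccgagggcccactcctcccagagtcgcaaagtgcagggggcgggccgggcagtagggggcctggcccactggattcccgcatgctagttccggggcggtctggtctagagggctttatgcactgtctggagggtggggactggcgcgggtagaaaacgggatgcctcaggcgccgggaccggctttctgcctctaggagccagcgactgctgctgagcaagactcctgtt

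*Amn* (ENSMUSG00000021278, chr12:111271095-111276426, plus strand) encodes amnionless, the protein that anchors cubilin. It had 0.43, 0.37 and 0.34 TPM in the WT samples against 0.48 and 1.16 TPM in the C3G KO samples. C3G KO 1 was just above the WT samples as deposited and C3G KO 2 well above them. The scaled means were 0.3111 ± 0.00977 (SD, n = 3) and 1.028 ± 0.357 (SD, n = 2), with a log2 difference of 0.62 (adjusted p = 0.0145 from limma). The protein-coding transcript *Amn-201* was listed at 0.18, 0.27 and 0.12 TPM in the WT samples against 0.48 and 0.69 TPM in the C3G KO samples. Its share of the gene was 50% in WT and 71.3% in C3G KO cells, and the rest was largely *Amn-202*, a transcript with a retained intron. Without WT 2 the adjusted p of *Amn* was 0.0572. The ratio of *Cubn* to *Amn* was between 2.326 and 2.706 in WT and was 4.167 and 2.759 in the C3G KO samples, so C3G KO 2 lay just above the WT range.

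*Dab2* (ENSMUSG00000022150, chr15:6299788-6440712, plus strand) encodes the clathrin adaptor of megalin. It had 2.24, 1.90 and 1.91 TPM in the WT samples against 1.55 and 3.82 TPM in the C3G KO samples, so the groups overlapped as deposited. After scaling they did not, with means of 1.655 ± 0.0885 (SD, n = 3) and 3.361 ± 1.21 (SD, n = 2), and the spread between the C3G KO samples was the widest of the 10 genes. The log2 difference was 0.69 (SE 0.164, adjusted p = 0.0247 from limma). It was 0.22 as deposited (adjusted p = 0.325), and the call was also lost without WT 1 (adjusted p = 0.0598) or WT 2 (adjusted p = 0.0664). With the filter of 0.1 TPM, it was lost without any of the WT samples and without C3G KO 2.

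The annotation gives *Dab2* a pair of first exons that lie 86.8 kb apart. The 5 transcripts from the downstream start summed to 1.81, 1.76 and 1.38 TPM in the WT samples against 1.2 and 2.55 TPM in the C3G KO samples. The 5 transcripts from the upstream start were listed at 0 in all WT samples and summed to 0.25 and 0.24 TPM in the C3G KO samples. This split was chosen after its values were seen, and TPM of single transcripts of one gene are estimates that share reads. The promoters of both starts are shown because only the upstream one was listed above 0 in C3G KO samples alone. Capitals mark the GATA matches, of which the one printed as TTATCT is AGATAA on the other strand. The upstream window (chr15:6299539-6299838, plus strand) has a match 179 bases before the start and another 14 bases after it. At least 2 GATA matches are found in 7.77% of all promoters. The downstream window (chr15:6386498-6386797, plus strand) has none. It has 59.3% G and C and 19 CpG, against 37.7% and 2 CpG in the upstream window. A match is a run of letters and not evidence of binding.
Dab2 upstream: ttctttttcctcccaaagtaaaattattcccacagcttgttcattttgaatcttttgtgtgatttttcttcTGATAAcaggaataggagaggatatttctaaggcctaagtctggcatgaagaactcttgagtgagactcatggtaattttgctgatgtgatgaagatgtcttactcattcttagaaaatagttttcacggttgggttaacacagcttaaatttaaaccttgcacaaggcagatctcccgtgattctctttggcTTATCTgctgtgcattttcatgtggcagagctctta
Dab2 downstream: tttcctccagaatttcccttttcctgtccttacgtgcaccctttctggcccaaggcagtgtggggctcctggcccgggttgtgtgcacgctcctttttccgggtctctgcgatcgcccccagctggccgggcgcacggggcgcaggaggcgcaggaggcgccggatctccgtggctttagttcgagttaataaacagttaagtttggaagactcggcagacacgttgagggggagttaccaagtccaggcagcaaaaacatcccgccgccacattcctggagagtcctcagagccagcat

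Among the transcription factors, *Gata6* and *Sox17* were higher in C3G KO cells and *Gata4*, *Sox7* and *Foxa2* did not pass the test. All 5 were below 1 TPM in every sample as deposited. Their scaled TPM summed to 2.037, 2.025 and 1.712 in the WT samples against 3.233 and 3.51 in the C3G KO samples. As deposited the sums were 2.72, 2.47 and 1.89 TPM in the WT samples against 2.0 and 3.18 TPM in the C3G KO samples, and the groups overlapped.

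*Gata6* (ENSMUSG00000005836, chr18:11052064-11085635, plus strand) encodes the factor that acts earliest in primitive endoderm. In scaled TPM it had 0.367, 0.2951 and 0.308 in the WT samples against 0.889 and 0.9162 in the C3G KO samples. The C3G KO samples lay close together and well above WT, at 2.79 times the WT mean, with a log2 difference of 0.52 (SE 0.0606, adjusted p = 0.00362 from limma). As deposited it had 0.34 to 0.49 TPM in WT and 0.55 and 0.83 TPM in C3G KO cells, with a log2 difference of 0.27 that did not pass (adjusted p = 0.0769). The protein-coding transcript *Gata6-201* held 79.0% of the gene's TPM in WT and 74.6% in C3G KO cells. The gene 1010001N08Rik overlaps *Gata6* on the opposite strand and had 0.06 to 0.07 TPM in WT and 0.14 and 0.18 TPM in C3G KO cells.

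*Sox17* (ENSMUSG00000025902, chr1:4490931-4497354, minus strand), which also acts in definitive endoderm, had 0.4195, 0.4263 and 0.308 scaled TPM in the WT samples against 0.9375 and 1.071 in the C3G KO samples. Both C3G KO samples were above all WT samples, and the log2 difference was 0.53 (SE 0.0735, adjusted p = 0.00626 from limma). As deposited it was 0.26 (adjusted p = 0.113) and did not pass. About as much of the gene's TPM was listed under *Sox17-204*, a transcript of 840 bases, in WT (52.1%) as in C3G KO cells (49.7%).

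*Foxa2* (ENSMUSG00000037025, chr2:148042877-148046969, minus strand), a forkhead factor of visceral and definitive endoderm, had 0.3371, 0.2705 and 0.2083 scaled TPM in the WT samples against 0.2425 and 0.3311 in the C3G KO samples. The groups overlapped, and the log2 difference was 0.017 (adjusted p = 0.887 from limma). The ratio of *Cubn* to *Foxa2* was between 2.222 and 4 in WT and was 13.33 and 10.67 in C3G KO cells.

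*Gata4* (ENSMUSG00000021944, chr14:63198922-63271692, minus strand) had 0.85, 0.96 and 0.77 TPM in the WT samples against 0.54 and 0.90 TPM in the C3G KO samples. The groups overlapped as deposited, and after scaling both C3G KO samples lay just above WT, at 1.32 times the WT mean. The log2 difference was 0.18 after scaling (adjusted p = 0.151 from limma) and -0.12 as deposited (adjusted p = 0.496), and neither passed. With the length and GC correction it was 0.30 and passed (adjusted p = 0.0368). The transcript *Gata4-202* had 0.40, 0.51 and 0.35 TPM in WT and 0.15 and 0.28 TPM in C3G KO cells as deposited, and the shorter *Gata4-203* had 0.20, 0.19 and 0.30 TPM in WT and 0.29 and 0.40 TPM in C3G KO cells.

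*Sox7* (ENSMUSG00000063060, chr14:63943673-63950732, plus strand), a SOX factor of parietal endoderm, had 0.2772, 0.2459 and 0.1902 scaled TPM in the WT samples against 0.2909 and 0.1987 in the C3G KO samples. The groups overlapped and the log2 difference was 0.0078 (adjusted p = 0.944 from limma). As deposited it had 0.21 to 0.37 TPM in WT and 0.18 TPM in both C3G KO samples. *Gata6* stood at 0.375 to 0.5765 times *Gata4* in WT and at 1.019 and 0.9222 times in C3G KO cells, and *Sox17* at 1.514 to 1.733 times *Sox7* in WT and 3.222 and 5.389 times in C3G KO cells.

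*Gata4* and *Sox7* lie 672.0 kb apart on chromosome 14, in a region where other genes were lower in C3G KO cells. Of the 25 other protein-coding genes tested that start within 2 Mb of either, none was higher and 22 were lower by limma (1 and 23 at an unadjusted p under 0.05), which is 88.0% where 16.6% of all genes were lower. Their median log2 difference was -0.56 after scaling, -1.14 as deposited and -0.52 with the length and GC correction. Within 5 Mb, 46 of 51 genes were lower, with a median of -0.66. *Ctsb*, which encodes the lysosomal protease cathepsin B and starts 149 kb from *Gata4*, had 14.03, 13.94 and 13.60 TPM in the WT samples against 3.38 and 4.69 TPM in the C3G KO samples, a log2 difference of -0.97 (adjusted p = 0.000693). *Pinx1*, which starts 83.3 kb from *Sox7*, fell by 0.67 on the log2 scale (adjusted p = 0.0058). *Wdfy2*, *Tdh*, *Mtmr9* and *Xkr6* around *Gata4* and *Kif13b* and *Hmbox1* beyond *Sox7* were lower too, by between 0.53 and 0.90. The exceptions among the nearest genes were *Fdft1*, the gene of squalene synthase, 92.1 kb from *Gata4*, with a log2 difference of 0.24 (adjusted p = 0.0663), and *Msra*, with 0.043 (adjusted p = 0.691). *Gata4* and *Sox7* were at 0.18 and 0.0078. Their WT means on the log2(scaled TPM + 1) scale were 0.7706 and 0.3071, which is the most that each could fall. On this scale *Sox7* could therefore not have reached the median of its neighbours at any level, while *Gata4* could have. Ratios of scaled means, without the added 1 TPM, do not have this limit. They were 1.32 for *Gata4* and 1.03 for *Sox7*, against 0.466 for *Ctsb* and 0.574 for *Pinx1*. Those of *Fdft1* and *Msra* were 1.20 and 1.05. What the lower level of this region contributes to the values of *Gata4* and *Sox7* was not tested.

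**Figure D3:**
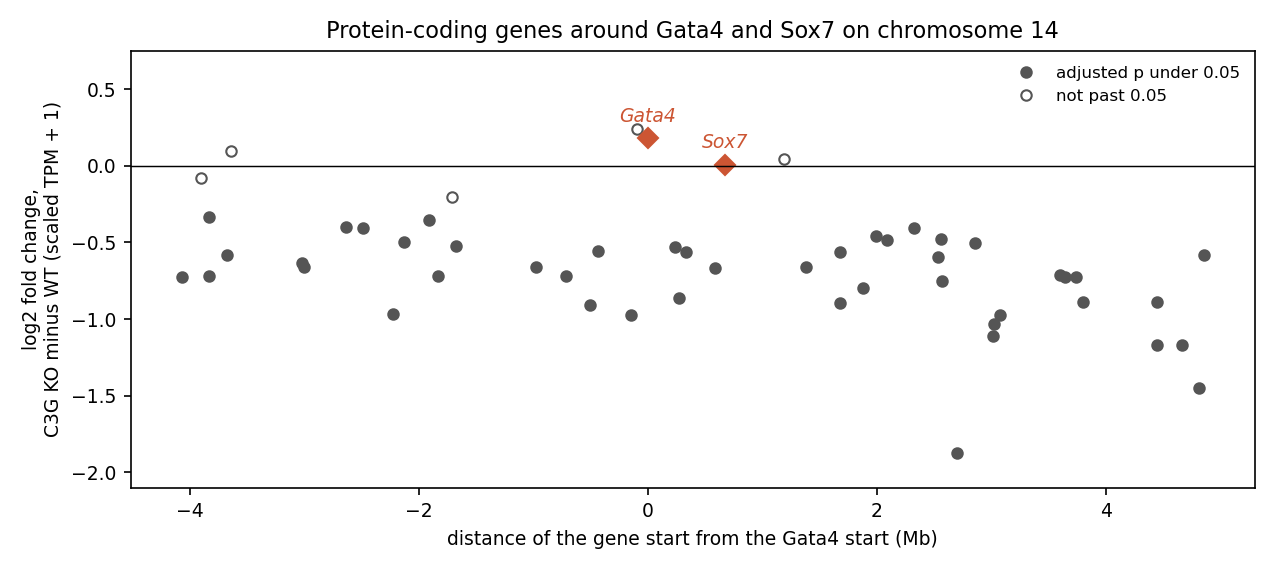
Log2 difference (C3G KO minus WT, scaled TPM) of tested protein-coding genes on chromosome 14 against the distance of their start from that of *Gata4*, with *Gata4* and *Sox7* marked. The genes around them have a median of -0.66 within 5 Mb, and *Gata4* and *Sox7* lie at 0.18 and 0.0078. The WT mean of *Sox7* on this scale, 0.3071, is the most that it could fall.

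*Pdgfra* (ENSMUSG00000029231, chr5:75152292-75198215, plus strand) encodes the PDGF receptor alpha, a surface marker of primitive endoderm and of mesenchyme. It had 0.47, 0.39 and 0.50 TPM in the WT samples against 0.75 and 1.49 TPM in the C3G KO samples. Both C3G KO samples were above all WT samples on both scales. The scaled means were 0.3749 ± 0.0695 (SD, n = 3) and 1.428 ± 0.306 (SD, n = 2), with a log2 difference of 0.82 (SE 0.0987, adjusted p = 0.00412 from limma) and 0.52 as deposited (adjusted p = 0.0157). The full-length transcript *Pdgfra-201* had 0.21, 0.15 and 0.12 TPM in the WT samples against 0.58 and 0.88 TPM in the C3G KO samples, and its share of the gene was 35.3% in WT and 65.2% in C3G KO cells.

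The ligand gene *Pdgfa* moved the other way. It had 17.05, 16.61 and 14.44 TPM in the WT samples against 3.14 and 4.20 TPM in the C3G KO samples, a log2 difference of -1.27 (adjusted p = 0.000208 from limma). The ratio of receptor to ligand transcripts was between 0.02348 and 0.03463 in WT and was 0.2389 and 0.3548 in C3G KO cells. Of 11 genes of the PDGF and related receptor family, *Pdgfa* included, 5 were tested. After scaling *Pdgfc* was higher (log2 difference 0.39) and 3 were lower, among them *Pdgfa* and *Flt1* (-0.97), a VEGF receptor gene, where 14.1% of all genes tested were higher and 16.6% lower. The receptor gene *Kit* had a log2 difference of -0.025 (adjusted p = 0.827). As deposited 4 of the 5 were lower and none was higher by limma, also at an unadjusted p under 0.05. Among all genes tested, 1.45% were higher and 56.8% lower as deposited.

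**Figure D4:**
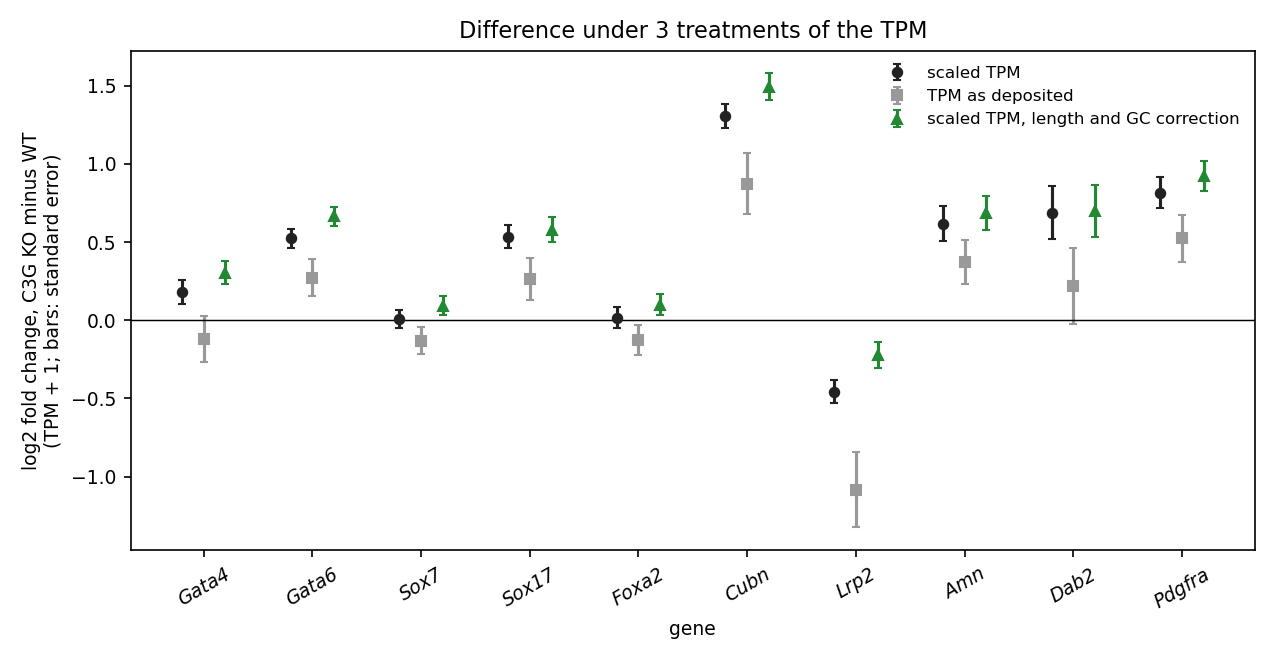
Log2 difference (C3G KO minus WT) of each of the 10 genes with its standard error, on scaled TPM, on TPM as deposited and on scaled TPM with the length and GC correction, all with the filter of 0.1 TPM. *Cubn* is at 1.31 and 0.87 on the first and second scale, *Lrp2* at -0.46 and -1.08, and *Dab2* at 0.69 and 0.22.

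The partners of these receptors in endocytosis moved in both directions. Of 24 such genes all were tested, 3 were higher and 7 lower, with a median log2 difference of -0.11, where 14.1% of all genes tested were higher and 16.6% lower and their median was 0.0052. Corrected for length and GC content, 2 were higher and 5 lower, beside 16.9% and 14.2% of all genes. Their median was then -0.038, and *Clta* did not pass (adjusted p = 0.0779 from limma). The higher ones were *Appl1* (0.39), *Gipc1* (0.35) and the clathrin light chain gene *Clta* (0.32), of which the first and second encode adaptors. The largest fall was that of *Clcn5* (-1.34, adjusted p = 0.000315 from limma), the gene of an endosomal chloride transporter needed for uptake through megalin in kidney. *Clcn5* had 11.05, 9.82 and 9.56 TPM in the WT samples against 1.51 and 2.66 TPM in the C3G KO samples. The clathrin heavy chain gene *Cltc* had a log2 difference of -0.11 (adjusted p = 0.311). As deposited none of the 24 was higher by limma, also at an unadjusted p under 0.05, and 19 were lower, where 1.45% of all genes were higher and 56.8% lower, so that the rises of *Appl1*, *Gipc1* and *Clta* were not seen as deposited.

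Other regulators of endoderm were mostly below the filter of 1 TPM. Of 19 such genes 4 were tested, and 14 were under 1 TPM in all samples. *Prdm1*, a repressor of transcription, was higher with 1.356, 1.271 and 1.268 scaled TPM in the WT samples against 2.263 and 2.616 in the C3G KO samples (log2 difference 0.58, adjusted p = 0.00365 from limma). As deposited its groups overlapped and it did not pass, with a log2 difference of 0.14 (adjusted p = 0.507). *Zfpm1*, whose product FOG1 binds GATA factors, was lower (-0.92, adjusted p = 0.00342). *Eomes* had a log2 difference of 0.021 (adjusted p = 0.904). So 1 of the 4 was higher and 1 lower, beside 14.1% and 16.6% of all genes. As deposited none was higher and *Zfpm1* was lower, beside 1.45% and 56.8% of all genes. Among 12 other SOX and GATA genes, 6 were tested, none was higher (1 at an unadjusted p under 0.05) and 3 were lower by limma, with *Sox21* (-0.62) and *Sox15* (-0.51) falling most and a median of -0.19. Corrected for length and GC content, 2 of the 6 were higher and 2 lower, beside 16.9% and 14.2% of all genes, with a median of -0.019. *Sox2*, the SOX gene of pluripotent cells, had a log2 difference of 0.23 (adjusted p = 0.176).

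Markers of the visceral and parietal endoderm moved in both directions. Of 30 visceral endoderm genes, 21 were under 1 TPM in all samples, and the defining secreted proteins were close to 0, with *Afp* at most 0.05, *Ttr* at most 0.06 and *Apoa1* at most 0.08 TPM in any sample. Of the 8 tested, 3 were higher and 3 lower, with a median log2 difference of -0.13. *Rhox5* (0.74) and *Emb* (0.62) had the largest rises, and *Cldn6* (-1.03) and *Tmprss2* (-0.88) the largest falls. *Apoe*, the most abundant, had 310.67, 275.76 and 247.22 TPM in the WT samples against 108.48 and 183.84 TPM in the C3G KO samples, and did not pass after scaling (-0.27, adjusted p = 0.0877). Of 24 parietal endoderm genes, 18 were tested, 2 were higher and 9 were lower, with a median of -0.35, where 14.1% of all genes tested were higher and 16.6% lower. Corrected for length and GC content, 4 of the 18 were higher and 8 lower, beside 16.9% and 14.2% of all genes, with a median of -0.050. The higher ones were *Srgn* (1.33), which encodes a proteoglycan core protein, and the laminin gene *Lama1* (0.71), and the largest falls were of the keratin genes *Krt8* (-3.07) and *Krt18* (-3.02). As deposited none of the visceral genes was higher, with or without adjustment, and 5 were lower. Of the parietal genes 1 was higher and 15 were lower as deposited, with a median of -0.89. Among all genes tested, 1.45% were higher and 56.8% lower as deposited.

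**Figure D5:**
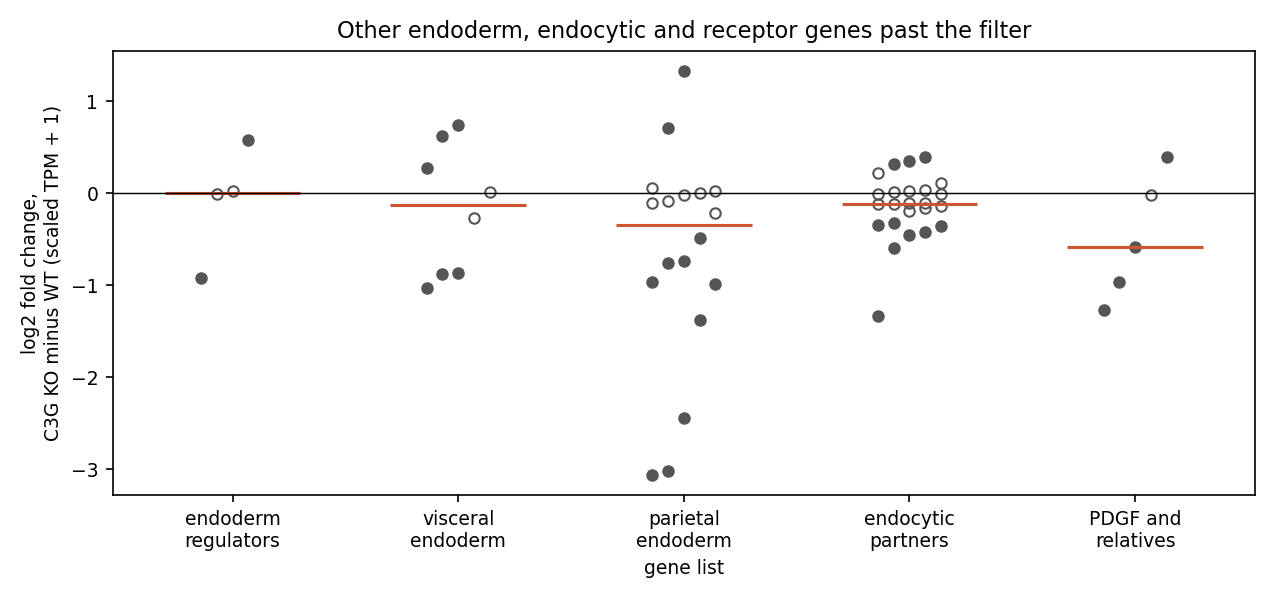
Log2 difference (C3G KO minus WT, scaled TPM) of each tested gene in 5 lists of endoderm, endocytosis and receptor family genes, with a line at the median of each list and filled points for genes past the threshold. Medians lie between -0.59 for the PDGF family and 0.0033 for the endoderm regulators, and each list holds genes of both directions past the threshold.

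Markers of other cell types were set beside these values. The 8 ES cell markers summed to 565 to 659 scaled TPM in WT and to 700 and 698 in C3G KO cells, and none passed limma's test, although 2 were higher at an unadjusted p under 0.05. As deposited the sums were 754, 745 and 728 TPM in the WT samples against 433 and 633 TPM in the C3G KO samples, with *Tbx3* lower, and corrected for length and GC content *Esrrb* and *Tfcp2l1* were higher. *Pou5f1*, the gene of OCT4, did not pass (log2 difference 0.18, adjusted p = 0.413). The 9 trophoblast markers summed to between 6.26 and 6.39 scaled TPM in WT and to 1.78 and 1.34 in C3G KO cells, the 6 mesoderm markers to between 4.22 and 5.26 and to 1.29 and 2.0, and the 8 fibroblast markers to between 3.76 and 4.60 and to 1.73 and 1.66. Of the 8 fibroblast markers, 6 were under 1 TPM in all samples. Whether the rise of *Pdgfra*, which also marks mesenchyme, came from such cells was not tested. Of the few tested, 2 of 3 trophoblast, 1 of 1 mesoderm and 2 of 2 fibroblast markers were lower by limma. Among all genes tested, 16.6% were lower after scaling. The 7 definitive endoderm markers summed to between 73.6 and 93.7 scaled TPM in WT and to 205 and 182 in C3G KO cells. Nearly all of it was *Trh* (log2 difference 1.27, adjusted p = 0.00153 from limma), so the sum is a reading of that gene. *Trh* did not pass as deposited (log2 difference 0.58, adjusted p = 0.0621). Of the 7 markers, 5 were under 1 TPM in all samples, and *Hhex* had a log2 difference of -0.015 after scaling (adjusted p = 0.922). The 6 neurectoderm markers summed to between 2.0 and 3.22 in WT and to 3.23 and 3.97, with *Neurog2* listed at 0 in all samples. The part of cell composition in the rises of *Cubn*, *Gata6*, *Sox17*, *Amn* and *Pdgfra* was not tested.

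The genes whose pattern over the 5 samples was most like that of *Cubn* were *Srgn*, *Lrmp*, *Ldhb*, *Insig1* and *Mcf2*. Likeness was the root mean square difference from *Cubn* in log2(scaled TPM + 1) set against the WT mean. It was taken over 10831 protein-coding genes past the filter of 1 TPM. It was 0.0405 for *Srgn*, 0.042 for *Lrmp* and 0.0465 for *Ldhb*. *Insig1* and *Mcf2* followed with 0.0474 and 0.066. *Ldhb* encodes a lactate dehydrogenase subunit. It had 71.99, 70.36 and 72.65 scaled TPM in the WT samples against 183.9 and 189.5 in the C3G KO samples. Its scaled C3G KO mean was 2.605 times the WT mean, and that of *Cubn* was 4.389 times. The likeness of *Ldhb* and *Cubn* thus holds on log2(scaled TPM + 1) and not for the fold. Of the other 9 endoderm genes only *Lrp2* and *Dab2* passed that filter and were compared, and neither was among these 5.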

How the data were processed

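RNA libraries of 3 WT and 2 C3G KO samples were sequenced with paired ends. The authors checked reads with FastQC, aligned them with STAR to GRCm38, tested expression with DESeq2 and deposited TPM per Ensembl transcript, rounded to 2 decimals. The submitters' processing notes also name STAR 2.5.1b, RSEM 1.2.31, FastQC 0.11.7 and bcl2fastq 2.20. Of 142647 transcripts, 141524 were matched to GENCODE M21, 1123 were not, and TPM were summed by symbol, 113 symbols holding more than 1 gene identifier. No read counts were used here, and depth is unknown.

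TPM were divided by median-of-ratios size factors. Genes with at least 1 TPM in at least 2 samples were tested over all 5 samples with limma 3.58.1 under R 4.3.3. The test was two-sided, used log2(TPM + 1) and a trend of variance with mean, and had Benjamini-Hochberg adjustment over all genes tested. The prior degrees of freedom were 3.11 after scaling and infinite as deposited, where a gene's own spread therefore did not enter the p-value. Alternatives were TPM as deposited, size factors from protein-coding genes, quantile normalization, no filter or one of 5 TPM, pseudocounts of 0.1 and 5, no trend, a replicate block, a loess correction for length and GC content (span 0.5), that correction with the block, and each sample left out. A filter of 1 TPM on scaled values and the fits with a filter of 0.1 TPM were added after seeing the data. Ratios were compared by exact permutation tests. The procedure was tested on simulated data.

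The 10 genes, the lists and the tests were chosen with earlier results of these data known. Named beside the 10 genes and *Rapgef1* were, in each list, the 2 genes that rose and the 2 that fell most past the threshold of 0.05 and the 2 genes of highest mean TPM, the 3 tested protein-coding genes nearest to *Gata4* and *Sox7* on each side within 2 Mb, the 5 genes most like *Cubn*, and transcripts holding at least 10% of a gene's TPM. Other genes named (*Afp*, *Ttr*, *Apoa1*, *Hnf4a*, *Tfec*, *Gata3*, *Nr2f2*, *Zfpm2*, *Tbx3*, *Esrrb*, *Tfcp2l1*, *Neurog2* and genes overlapping the 10) and the *Dab2* starts were chosen after their values were seen. Some genes that this rule takes, and 1 of the lists, are not reported here. Promoters came from RefSeq for GRCm38.p6, and those of 6 of the 10 genes were searched. For the 10 genes, windows on chromosome 18, where *Gata6* lies, were left out. Python 3.11.15, pandas 2.3.3, scipy 1.17.1 and matplotlib 3.10.9 were used.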

Additional observations from a re-analysis of the deposited data

How the results depend on the processing

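Among the 10 genes, 2 were higher, 1 lower and 7 below the filter of 1 TPM, and 1760 of all genes were higher and 2083 lower. As deposited, 1 of the 10 was higher, with 181 genes higher and 7109 lower. With the filter of 0.1 TPM, 0 of the 10 were below it and 6 were higher, with the length and GC correction 7 were higher and 0 lower, and as deposited 232 genes were higher and 7327 lower. The length and GC correction alone left 0 lower, and with the replicate block 1 higher, 0 lower and 1356 genes lower. With a filter of 5 TPM, 0 were higher and 1145 genes lower. With no filter, 0 were below it, 0 were lower and 3 were higher (*Cubn*, *Gata6* and *Sox17*), with 576 genes higher and 1115 lower. With a sample left out, between 1 and 2 of the 10 were higher, with 909 to 1579 genes higher and 1385 to 1880 lower, lowest without WT replicate 2. With the filter of 0.1 TPM and a sample left out, between 4 and 6 were higher, with 667 to 1359 genes higher and 1243 to 1874 lower (806 and 914 higher without C3G KO 1 and 2, and 1246 lower without WT 2). *Cubn* stayed higher under every alternative in which it was tested, and *Rapgef1* did not pass with the length and GC correction (adjusted p = 0.254).

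The replicate block used numbers 1 and 2, which are shared by the groups. Deviations from the group mean correlated at -0.18 between the samples numbered 1 and 0.181 between those numbered 2. With 2 C3G KO samples their deviations mirror each other, so these are not separate readings, and WT 3, which has no partner, correlated more strongly (0.334 with C3G KO 1 and -0.334 with C3G KO 2, whose library name carries the number 3). The samples were treated as sharing only a number. The block left 2 of the 10 higher and 1 lower, with 1491 genes higher and 1814 lower. With the filter of 0.1 TPM it left 5 higher and 0 lower, with 1025 genes higher, since *Dab2* (adjusted p = 0.069) and *Lrp2* (adjusted p = 0.0538) did not pass. Where a call was lost, the cause was not tested. TPM hold no depth, and values under 1 TPM rounded to 2 decimals carry an unknown counting error.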

Other observations

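Of 19 other regulators of endoderm, 16 were tested with the filter of 0.1 TPM, where 3 were higher (*Hnf4a*, *Prdm1* and *Tfec*) and 4 lower (*Gata3*, *Nr2f2*, *Zfpm1* and *Zfpm2*) by limma, beside 8.65% and 10.8% of all genes. *Hnf4a*, a nuclear receptor of visceral endoderm, had 0.15, 0.08 and 0.09 TPM in the WT samples against 0.16 and 0.28 TPM in the C3G KO samples, a log2 difference of 0.24 (adjusted p = 0.0198), and did not pass as deposited (adjusted p = 0.138). *Zfpm2*, which encodes the GATA partner FOG2, had 0.96, 0.62 and 0.45 TPM in the WT samples against 0.03 and 0.06 TPM in the C3G KO samples, a log2 difference of -0.54 (adjusted p = 0.0119). These genes were chosen after their values were seen.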
